A study of Mus musculus with 13 samples.

Results

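The heat shock proteins described here are 9 of 10 genes proposed under that name, out of 30142 genes that a feature (a transcript cluster, the array's unit of a gene) names alone. A gene was represented by its brightest feature over all mice among those with its symbol and no other. Hspa2, Hspa8, Hspb1, Hspb8, Hspd1, Hspe1, Hsph1, Hsp90aa1 and Dnajb1 had one, and Hsp90ab1 was not analysed here. The 10 were selected on their family and with differences between high-fat diet and chow in these same log2 values in view, so HD is set against CON as a description, with no test. For Hspa2 the difference of MIX from E2 was known as well. The members' p-values in that contrast are therefore descriptive too.

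Endometrium was scraped from the opened uterus of 13 female C57BL/6 mice, each with both ovaries removed at 6 to 8 weeks of age and each measured on 1 Affymetrix array. In the MIX group 3 mice ate a high-fat diet and carried a pellet under the skin that releases 17-β estradiol, and in the HD group 3 mice ate the high-fat diet without a pellet. The E2 group held 4 mice on normal chow with the pellet, and the CON group 3 mice on chow without it. Treatment lasted 12 weeks. All groups lack ovaries, so HD and CON are models without ovarian hormones rather than untreated animals, and the pellet's dose was not given in the sources used here. Animal codes in the titles come in a numbered style (2 HD, 3 E2 and 2 CON mice) and a lettered style (1 HD, 1 E2, 1 CON and all 3 MIX mice). The sources used here do not say what the code styles mean, and every contrast with MIX is also partly a contrast of styles.

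Heat shock proteins are molecular chaperones: they hold, fold, refold or hand on other proteins, under stress and in normal growth. HSP70 proteins bind short hydrophobic stretches with ATP, J-domain proteins bring them clients, and HSP110 proteins exchange their nucleotide. HSP90 completes the folding of kinases and of steroid receptors, among them the estrogen receptor, while the HSP60 and HSP10 proteins form a folding chamber in mitochondria. Small heat shock proteins hold unfolded proteins without ATP. The transcription factor HSF1 switches many of these genes on by binding heat shock elements, which are runs of inverted GAA units.

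Promoter windows of 300 bases, 250 before to 50 after an annotated start, were taken from RefSeq (GRCm38.p6) and were at hand for 7 members. Each was searched for GAANNTTC and TTCNNGAA, which are pairs of inverted GAA units. Both are their own reverse complement, so a search covers both strands, and motifs that share a GAA unit are counted as overlapping. Positions count from 1 at the annotated start base, with negative positions before it. Hspe1 and Hspd1 stand head to head on chromosome 1, and the window of Hspe1 and that at the second start of Hspd1 share 285 bases. Hsph1 and Hspb1 are shown as members with fewer or separated motifs, and Hspa2 as one with none. Hspe1 lies at chr1:55087898-55088197 on the plus strand, Hsph1 (first start) at chr5:149636287-149636586 on the minus strand, Hspb1 at chr5:135887669-135887968 and Hspa2 at chr12:76404120-76404419, both on the plus strand. Capitals mark the motifs.
Hspe1: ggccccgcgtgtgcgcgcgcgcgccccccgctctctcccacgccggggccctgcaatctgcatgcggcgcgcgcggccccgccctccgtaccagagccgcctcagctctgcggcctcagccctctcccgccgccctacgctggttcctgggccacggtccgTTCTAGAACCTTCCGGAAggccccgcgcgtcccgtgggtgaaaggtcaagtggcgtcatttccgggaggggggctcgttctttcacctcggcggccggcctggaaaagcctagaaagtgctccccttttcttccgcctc
Hsph1: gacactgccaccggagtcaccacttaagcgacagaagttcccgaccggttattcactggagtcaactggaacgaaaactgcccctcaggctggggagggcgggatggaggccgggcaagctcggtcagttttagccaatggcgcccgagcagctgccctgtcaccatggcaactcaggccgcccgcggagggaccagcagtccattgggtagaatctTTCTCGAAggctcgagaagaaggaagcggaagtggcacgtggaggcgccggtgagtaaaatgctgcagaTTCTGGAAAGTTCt
Hspb1: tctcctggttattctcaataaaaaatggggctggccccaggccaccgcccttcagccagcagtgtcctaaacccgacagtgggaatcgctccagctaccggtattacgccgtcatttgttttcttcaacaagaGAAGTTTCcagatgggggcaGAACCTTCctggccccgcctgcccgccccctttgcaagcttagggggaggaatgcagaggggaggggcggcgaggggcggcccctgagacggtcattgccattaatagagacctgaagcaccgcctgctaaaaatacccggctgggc
Hspa2: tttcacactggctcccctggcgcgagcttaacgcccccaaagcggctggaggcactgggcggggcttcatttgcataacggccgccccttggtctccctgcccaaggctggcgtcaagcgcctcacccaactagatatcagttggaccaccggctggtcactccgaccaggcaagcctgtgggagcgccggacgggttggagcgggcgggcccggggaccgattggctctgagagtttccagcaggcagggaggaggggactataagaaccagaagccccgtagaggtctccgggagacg

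In Hspe1, 3 overlapping motifs made a run of 18 bases from -89 to -72 relative to the start. The same run, read from the other strand as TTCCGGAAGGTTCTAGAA, lay at -144 to -127 of the second Hspd1 start. Such a run of 3 was present in 8 of 32851 windows (0.02%). Hsph1 had 1 motif alone at -33 to -26 and 2 overlapping motifs at 37 to 49, and 2 or more overlapping motifs were found in 0.6% of windows. Hspb1 had 2 separate motifs, at -117 to -110 and at -97 to -90, and Hspb8 had 1, at 3 to 10. At least 1 motif was found in 5 of the 7 members with a window, and in 17.0% of all genes with one. None was found in the windows of Hspa2 and Dnajb1, the gene of a J-domain partner of HSP70. A match is only a run of letters.

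**Figure D1:**
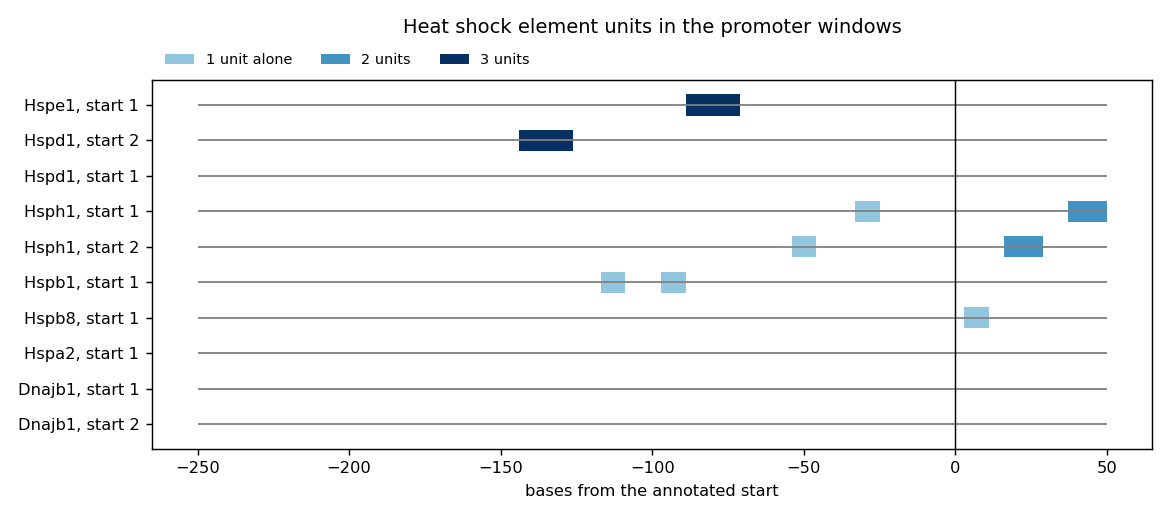
Positions of the motifs (bars) in the promoter windows of 7 members, in bases from the annotated start, with 1 line per start; darker bars hold more overlapping motifs. The runs of 3 motifs lie before Hspe1 and before the second start of Hspd1.

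The values are log2 expression made by the authors with RMA, a method that corrects, equalises and summarises array probes. Array medians lay between 4.48 and 4.71, and arrays correlated with r of 0.96 to 0.995. Markers of epithelium (9 of 9 measured, mean log2 value 9.87 to 10.4 in every mouse) and of stroma (7 of 8, 8.30 to 10.04) were bright in all mice. Smooth muscle markers (8 of 8) averaged 6.47 to 7.52. MIX replicate 2 stood apart, with the highest stroma mean (10.04) and an endothelium mean (6 of 6 markers) of 7.99, where the next mouse had 6.22. In scraped bulk tissue, fewer cells of a type and less RNA per cell cannot be told apart.

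Diet was read first without estradiol. Between HD and CON, 7 members had a lower and 2 a higher group mean in HD, with a median difference of -0.03 on the log2 scale, against 0.02 over all 65929 features. The HD mice did not resemble each other: replicates 1 and 2 sat near or above the chow mice for the mitochondrial pair and for HSP90, and replicate 3 sat below them. Only Hspb8 had HD mice that all lay beyond the CON mice, on the lower side, as did 3.91% of genes.

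Hspd1 encodes HSP60, the wall of the mitochondrial folding chamber. It had 9.84, 9.57 and 8.94 in HD mice 1 to 3, against 9.58, 9.58 and 9.29 in CON mice. Hspe1, the gene of its lid HSP10, had 8.78, 8.54 and 7.64 in HD mice, against 8.62, 8.53 and 8.19 in CON mice. For both genes the third HD mouse was the lowest of these 6 mice and the first the highest. The difference of means was -0.03 (SE 0.18) for Hspd1 and -0.13 (SE 0.22) for Hspe1, and 0.20 and 0.19 without HD replicate 3.

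Hsp90aa1, the inducible cytosolic HSP90, had 10.61, 10.59 and 9.75 in HD mice, against 10.41, 10.16 and 10.39 in CON mice. The first 2 HD mice lay above all CON mice and the third below them. The means differed by -0.01 (SE 0.18). Hsph1, the HSP110 nucleotide exchange factor, had 7.78, 8.25 and 7.23 in HD mice, against 8.37, 7.91 and 7.97 in CON mice. Its groups overlapped, again with HD replicate 3 lowest, and the difference was -0.33 (SE 0.38).

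Among the other members, Hspb8, a small heat shock protein that works with BAG3 in clearing misfolded proteins, had 6.80, 6.58 and 6.51 in HD mice, against 7.003, 7.04 and 7.58 in CON mice. All HD mice were lower, and the difference was -0.58 (SE 0.47). Hspb1, the small heat shock protein HSP27 (HSP25 in mice), had 8.34, 8.20 and 8.19 in HD mice, against 8.26, 8.32 and 9.21 in CON mice. The third CON mouse stood above the other 5, and the difference of -0.35 (SE 0.23) was -0.04 without it and without the style term. Hspa8, Hspa2 and Dnajb1 differed by 0.01 (SE 0.09), 0.11 (SE 0.08) and -0.03 (SE 0.16).

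**Figure D2:**
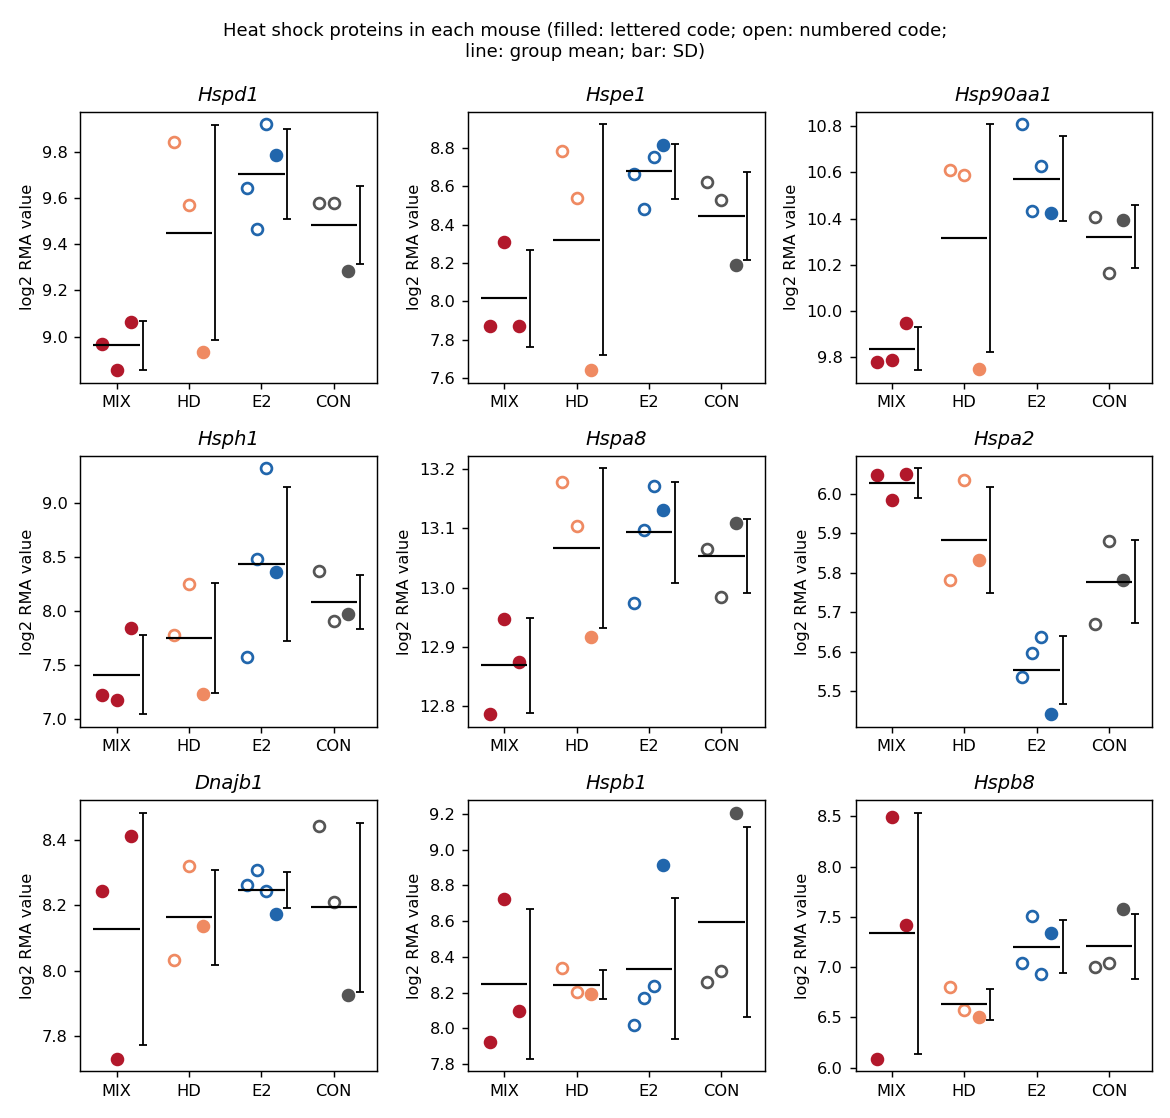
Log2 RMA value of each of 9 members in each mouse, by group, with group means (lines) and SD (bars); filled points are mice with lettered codes and open points mice with numbered codes. For Hspd1, Hspe1 and Hsp90aa1, 1 HD mouse lies with the 3 MIX mice and the other 2 with the chow mice; for Hsph1, 2 HD mice (7.78 and 7.23) lie in the MIX range of 7.18 to 7.84.

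Under estradiol the diet contrast, MIX against E2, gave lower values of the mitochondrial pair and of Hsp90aa1 in every MIX mouse. For Hspa8 this held in the feature used here but not in all features naming the gene. Of the 9 members, 4 had MIX mice that all lay below the E2 mice, namely Hspd1, Hspe1, Hsp90aa1 and Hspa8, as did 4.41% of genes. Hspa2 alone had MIX mice that all lay above the E2 mice, as did 2.06% of genes. No member passed an adjusted p of 0.05 in limma, and neither did any feature (0% of 65929). An unadjusted p under 0.05 was found for 1832 features, fewer than would be expected if none differed. The members' median difference was -0.37, with 7 lower and 2 higher, against -0.02 over all features, and -0.22 against -0.04 without the style term. Since the members were chosen with earlier results of these data known, these counts and the members' p-values in this contrast describe them and support nothing further.

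Hspd1 had 8.97, 8.86 and 9.06 in MIX mice, against 9.64, 9.46, 9.92 and 9.78 in E2 mice. The gap between the highest MIX and the lowest E2 mouse was wider than the whole spread of the MIX mice. Adjusted for code style, the difference was -0.51 (SE 0.20, adjusted p = 1.00 in limma), a ratio of 0.70 (95% interval of the log2 difference -0.96 to -0.07). It was -0.18 without E2 replicate 4, the lettered mouse of its group. The plain difference of means was -0.74, and -0.82 to -0.67 when each mouse in turn was left out of all 13.

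Hspe1 had 7.87, 8.31 and 7.87 in MIX mice, against 8.66, 8.48, 8.75 and 8.82 in E2 mice. The second MIX mouse came closest to the E2 mice, and the other 2 lay well below. Its adjusted difference was -0.37 (SE 0.25, adjusted p = 1.00 in limma), and it was 0.09 without E2 replicate 4, which enters the estimate of the style term. The plain difference was -0.66, and -0.81 to -0.59 when each mouse was left out.

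Hsp90aa1 had 9.78, 9.79 and 9.95 in MIX mice, against 10.81, 10.43, 10.63 and 10.42 in E2 mice. Every MIX mouse was below every E2 mouse. The adjusted difference was -0.50 (SE 0.20, adjusted p = 1.00 in limma) and the plain one -0.74. In 2 further features, which name Hsp90aa1 beside a predicted gene and may read copies of it, all MIX mice were again below all E2 mice. The first had 10.19, 10.20 and 10.14 in MIX mice, against 11.49, 10.90, 10.97 and 10.96 in E2 mice, and HD replicate 3 again lay with the MIX mice, at 10.18. Their adjusted differences were -0.76 and -0.75.

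Hsph1 had 7.22, 7.18 and 7.84 in MIX mice, against 7.58, 8.49, 9.32 and 8.37 in E2 mice. The groups overlapped through E2 replicate 1, and the E2 mice spread over more than the difference itself. The adjusted difference was -0.77 (SE 0.43, adjusted p = 1.00 in limma), and the plain one -1.02. It was the widest of the 9 members in either form.

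HSP70 members went both ways. Hspa8, the constitutive HSC70, had 12.79, 12.95 and 12.87 in MIX mice, against 12.97, 13.10, 13.17 and 13.13 in E2 mice. All MIX mice were lower by a small margin, with an adjusted difference of -0.20 (SE 0.10, adjusted p = 1.00 in limma). The identifier of this Hspa8 feature holds chromosome 6, while RefSeq places the gene on chromosome 9, so probes for near-identical copies may share in it. A feature on chromosome 9, which also names small nucleolar RNAs of the Hspa8 introns, had 10.71, 11.03 and 10.86 in MIX mice, against 11.03, 11.10, 11.09 and 11.20 in E2 mice. There MIX replicate 2 (11.0311) lay just above E2 replicate 1 (11.0264), so the groups overlapped, and the adjusted difference was -0.23. The groups also overlapped in another feature naming Hspa8 alone, with 12.923 in MIX replicate 2 and 12.9156 in E2 replicate 1. In the other features naming Hspa8, every MIX mouse was below every E2 mouse.

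Hspa2, an HSP70 best known for its part in male meiosis, ran against the rest. It had 6.05, 5.98 and 6.05 in MIX mice, against 5.54, 5.60, 5.64 and 5.44 in E2 mice. The MIX mice lay close together and above all E2 mice. The adjusted difference was 0.53 (SE 0.09) and the plain one 0.48, and it is given without a p because it was already known when the members were named.

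Dnajb1, a classical heat-inducible J-domain protein, had 8.24, 7.73 and 8.41 in MIX mice, against 8.26, 8.31, 8.24 and 8.18 in E2 mice. Its groups overlapped, with a difference of 0.01 (SE 0.19), and the plain difference was -0.12. Hspb1 had 7.93, 8.72 and 8.10 in MIX mice, against 8.02, 8.17, 8.24 and 8.91 in E2 mice. Those ranges nearly coincided; the adjusted difference of -0.50 (SE 0.26) came with a plain one of -0.09. Hspb8 had 6.09, 8.49 and 7.42 in MIX mice, against 7.04, 7.51, 6.93 and 7.34 in E2 mice. MIX held both its lowest and its highest mouse, and the highest was replicate 2, the mouse with the high endothelium and stroma markers; their part was not tested. Its difference was -0.01 (SE 0.53), with 0.61 without MIX replicate 1 and -0.59 without MIX replicate 2.

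**Figure D3:**
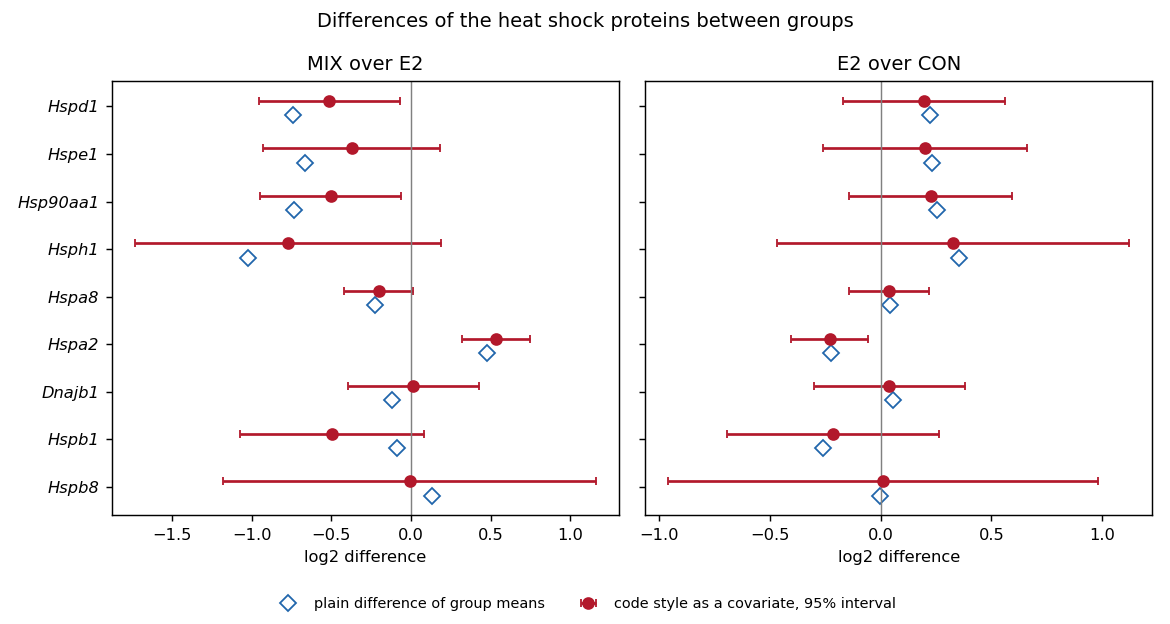
Log2 differences of 9 members for MIX over E2 (left) and E2 over CON (right): red points with 95% intervals are adjusted for code style, blue diamonds are plain differences of means. For MIX over E2, Hspd1 lies at -0.51 and -0.74, and Hspa2 at 0.53 and 0.48.

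Since the low HD mouse and all MIX mice carry lettered codes, diet was also compared within each style, pooling mice with and without the pellet. Among lettered mice (4 on high-fat diet and 2 on chow), high-fat minus chow was -0.58 for Hspd1, -0.58 for Hspe1, -0.59 for Hsp90aa1, -0.80 for Hsph1 and -0.24 for Hspa8. For each of these 5 genes, no high-fat lettered mouse reached a chow lettered mouse except in Hspe1, where MIX replicate 2 (8.31) exceeded CON replicate 3 (8.19). Among numbered mice (2 on high-fat diet, both HD, and 5 on chow), the same genes differed by 0.07, 0.05, 0.11, -0.32 and 0.08. Mean Hspa2 was higher on the high-fat diet in both styles, by 0.37 in lettered and 0.24 in numbered mice. In numbered mice its ranges overlapped, with 5.78 to 6.04 on high-fat diet and 5.54 to 5.88 on chow. The pellet was not balanced: both numbered high-fat mice lacked it, while 3 of the 5 numbered chow mice carried it. Numbered HD minus CON mice, all without the pellet, differed by 0.13 for Hspa2, 0.32 for Hsp90aa1 and 0.13 for Hspd1. The same difference was 0.09 for Hspe1, -0.12 for Hsph1 and 0.12 for Hspa8. Hspb1 differed by -0.83 in lettered and 0.07 in numbered mice. With 2 mice in the smaller group of each style, these differences were not tested, and no MIX mouse is numbered.

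Estradiol on chow, E2 against CON, left most members overlapping. None passed in limma (0% of features passed). An unadjusted p under 0.05 was found for 2651 features, again fewer than would be expected if none differed. Of the members, 7 had a higher and 2 a lower adjusted mean in E2, and the median difference was 0.04. Hsp90aa1 was the member whose E2 mice all lay above the CON mice, as did 3.84% of genes: 10.81, 10.43, 10.63 and 10.42 in E2 mice, against 10.41, 10.16 and 10.39 in CON mice. The lowest E2 and the highest CON mouse nearly met, and the difference was 0.23 (SE 0.17, adjusted p = 1.00 in limma). In the 2 further features that name Hsp90aa1 beside a predicted gene, E2 and CON mice overlapped. There CON replicate 3 (10.8965 and 11.1825) lay above E2 replicate 2 (10.8961 and 11.1314). Hspa2 was the member whose E2 mice all lay below, as did 3.09% of genes, at 5.54, 5.60, 5.64 and 5.44 in E2 mice, against 5.67, 5.88 and 5.78 in CON mice. That difference was -0.23 (SE 0.08, adjusted p = 1.00 in limma). Hspd1 and Hspe1 each differed by 0.20 (SE 0.16 and 0.21) and Hsph1 by 0.33 (SE 0.36). Hspb1 differed by -0.22 (SE 0.22), and Hspa8, Dnajb1 and Hspb8 by 0.04, 0.04 and 0.01.

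Estradiol on the high-fat diet, MIX against HD, gave 0 of 9 members whose MIX mice all lay below or all above the HD mice, where 9.22% of genes lay lower and 5.37% higher. limma passed 3 features (0.00455%), none of them a member. Hspd1 differed by -0.29 (SE 0.20, adjusted p = 0.769) and Hsp90aa1 by -0.27 (SE 0.20, adjusted p = 0.778). Without HD replicate 3 these were -0.66 and -0.71, and among lettered mice alone, where that mouse is all of HD, they were 0.03 and 0.09. Hspe1 differed by -0.05 (SE 0.25), Hsph1 by -0.11 (SE 0.44), Hspa8 by -0.18 (SE 0.10), Hspa2 by 0.20 (SE 0.10) and Hspb8 by 0.58 (SE 0.53; 0.003 without MIX replicate 2 and 1.203 without MIX replicate 1), with adjusted p of 0.714 to 0.977 in limma over all 9 members.

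MIX and CON differ in both treatments. Against CON, 4 members had MIX mice that all lay lower, namely Hspd1, Hsp90aa1, Hsph1 and Hspa8, where 12.0% of genes did, and Hspa2 had MIX mice that all lay higher, where 7.68% did. For Hspa8 this held in the features that name it alone. In the feature on chromosome 9, MIX replicate 2 (11.0311) lay above CON replicate 2 (10.9892). The same order was seen in a feature that names Hspa8 beside a predicted gene (12.4358 and 12.4208). Of all features 2 passed in limma (0.00303%), none a member. The smallest adjusted p among members were 0.445 for Hspa2, at 0.30 (SE 0.10), and 0.498 for Hspb1, at -0.71 (SE 0.26), whose plain difference was -0.35. Hspd1 differed by -0.32 (SE 0.20), or -0.52 without the style term, and Hsp90aa1 by -0.28 (SE 0.20), or -0.48; with the term it was 0.06 without CON replicate 3. This contrast shares its MIX and CON mice with those above.

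The diet difference with estradiol less that without it, MIX minus E2 less HD minus CON, is given as a description, because it contains the contrast that was in view when the members were chosen. It was -0.48 (SE 0.27) for Hspd1, -0.50 (SE 0.27) for Hsp90aa1, -0.25 (SE 0.33) for Hspe1, -0.44 (SE 0.58) for Hsph1 and 0.43 (SE 0.13) for Hspa2. Among lettered mice alone it was 0.06 for Hsp90aa1.

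Across the 13 mice the members fell into those that varied together and those that did not. Hspd1 and Hspe1 had r = 0.89 (0.83 within groups, after each group's mean was removed), Hspd1 and Hsp90aa1 0.89 (0.72 within groups), Hspa8 and Hspd1 0.80 (0.57) and Hspd1 and Hsph1 0.74 (0.54). The small heat shock proteins were paired with each other (Hspb1 and Hspb8, 0.59) and not with the mitochondrial pair (Hspb1 and Hspd1, 0.03). Hspb1 and Dnajb1 ran in opposite directions (-0.65). Hspa2 and Hspd1 did so as well (-0.65), but not within groups (0.04). Hsph1 had 0.61 with Hspe1 and 0.64 with Hsp90aa1, and only 0.31 and 0.32 within groups. All points share arrays and one RMA run, groups set much of the spread, and 36 pairs were computed, so the coefficients describe these mice.

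**Figure D4:**
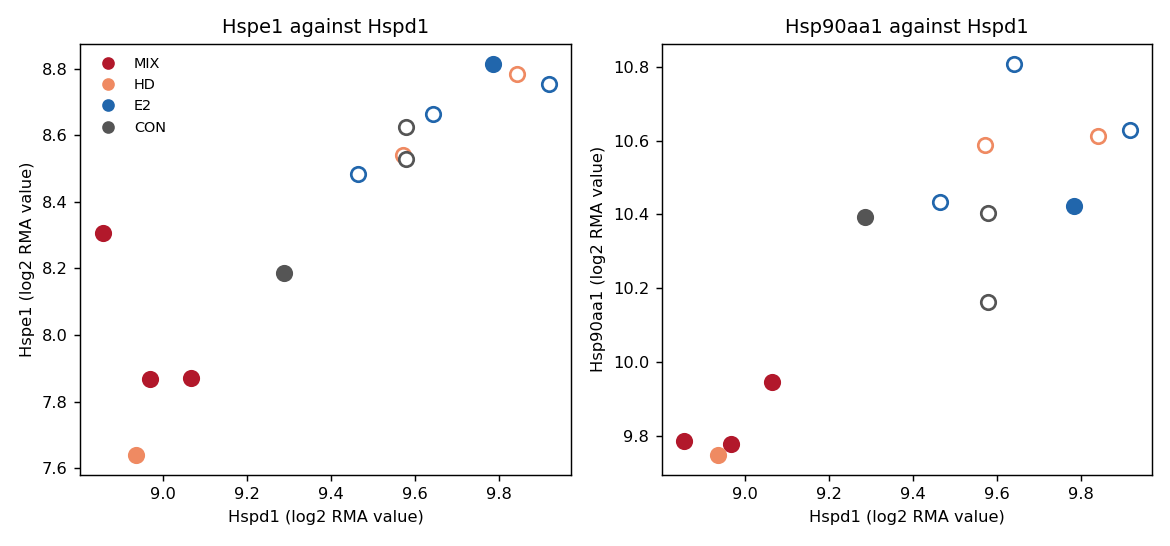
Hspe1 (left) and Hsp90aa1 (right) against Hspd1, log2 RMA values, 1 point per mouse, coloured by group and filled for lettered codes. In both panels the 3 MIX mice and HD replicate 3 lie at the left, at Hspd1 values of 8.86 to 9.06. They are also the lowest for Hsp90aa1, but for Hspe1 MIX replicate 2 (8.31) lies above CON replicate 3 (8.19).

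Among 18755 other genes, the 5 whose profile over the mice was most like the members' mean were Hspe1-ps5 (r = 0.91), Pds5b (0.90), Ndufaf6 (0.88), Tsen15 (0.88) and Psip1 (0.88). Hspe1-ps5 is a processed copy of Hspe1, so its probes may read the same RNA. It had 6.26, 6.71 and 6.51 in MIX mice, 7.11, 7.002 and 6.24 in HD mice, 6.88, 6.86, 7.04 and 7.09 in E2 mice, and 7.04, 6.57 and 6.86 in CON mice. HD replicate 3 was the lowest, and CON replicate 2 lay within the MIX range. Hspe1-ps5 was picked for its likeness to the members, so this order is no separate observation. Pds5b encodes a cohesin regulator, Ndufaf6 an assembly factor of respiratory complex I, Tsen15 a tRNA splicing endonuclease subunit and Psip1 a chromatin-binding protein.

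Other chaperone genes were read from lists of the pathway, of which no gene passed in any comparison. In MIX against E2, co-chaperones of HSP70 and HSP90 (20 of 21 measured) had 15 lower and 5 higher, with a median of -0.11. Fkbp4, a steroid receptor co-chaperone, had 9.34, 9.38 and 9.11 in MIX mice, 9.84, 9.86 and 9.65 in HD mice, 9.67, 9.64, 10.0001 and 9.95 in E2 mice, and 9.79, 9.70 and 9.75 in CON mice. All MIX mice were below all other mice, HD replicate 3 included, with a difference from E2 of -0.54 (SE 0.13). Stip1, which links HSP70 to HSP90, differed by -0.35 (SE 0.21), Bag3, the partner of Hspb8, by -0.01 (SE 0.17) and Fkbp5 by -0.12 (SE 0.16).

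Mitochondrial folding genes (10 of 10) had 8 lower and 2 higher in MIX than in E2, with a median of -0.08. Hspa9, the HSP70 of mitochondria, followed Hspd1: it had 9.09, 8.90 and 9.05 in MIX mice, 9.69, 9.43 and 9.09 in HD mice, 9.63, 9.35, 9.61 and 9.58 in E2 mice, and 9.35, 9.35 and 9.18 in CON mice. The MIX mice and HD replicate 3 were the 4 lowest. The difference of MIX from E2 was -0.39 (SE 0.14). Trap1, the mitochondrial HSP90, differed by -0.18 (SE 0.10). The cytosolic chaperonin and prefoldin list, which folds actin and tubulin, had 9 lower of 12 measured and a median of -0.12, with Cct2 at 0.03 (SE 0.12) and Pfdn5 at 0.22 (SE 0.16).

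The remaining lists were read in the same contrast. Of the HSP70 family 6 of 11 measured were lower, with a median of -0.02, and Hspa1a, the strongly heat-inducible HSP70, had 8.97, 8.29 and 8.73 in MIX mice, against 8.77, 9.43, 8.75 and 7.91 in E2 mice. These ranges overlapped, and the difference was 0.43 (SE 0.39), or -0.05 without the style term. The J-domain family had 5 lower of 15 measured (median 0.04), small heat shock proteins 4 of 8 (-0.01; Cryab -0.09, SE 0.16), and heat shock factors and their regulators 3 of 5 (-0.04). Chaperones of the endoplasmic reticulum had 4 lower of 12, with a median of 0.05; Hspa5 (BiP) was at -0.17 (SE 0.17) and Hsp90b1 (GRP94) at -0.17 (SE 0.14). For E2 against CON, all 12 of these were higher in E2, with a median of 0.21, and Hsp90b1 differed by 0.28. Immediate-early genes, which respond to handling as well as to signals, had 11 higher of 13 in MIX against E2, with a median of 0.15. Without the style term the medians were 0.03 for these, -0.01 for the J-domain family, -0.01 for chaperones of the endoplasmic reticulum and -0.10 for the HSP70 family. The HSP90 family list had 2 measured genes, Hsp90b1 and Trap1, both lower.

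Other gene lists moved with the low chaperones in some mice and not in others, and their part in the differences was not tested. Replication and mitosis genes (13 of 14 measured) were lower in MIX than in E2 for 12, with a median of -0.44, or -0.88 without the style term. Their mean per mouse was 6.78 to 7.43 in MIX mice and 6.44 to 8.48 in E2 mice; it was 8.55, 7.07 and 6.51 in HD mice and 7.46 to 8.52 in CON mice. HD replicate 3 was thus low in both. E2 replicate 2 had the lowest replication mean of all, 6.44. Its Hspd1 (9.46) and Hspe1 (8.48) were the lowest of the E2 mice. These values and its Hsp90aa1 (10.43) lay above every MIX mouse. Squamous epithelium markers were higher in MIX than in E2 for 6 of 6, with a mean per mouse of 8.19 to 9.52 in MIX mice and 6.98 to 8.36 in E2 mice. They averaged 6.38 to 6.53 in HD mice, with 6.53 in replicate 3, and 6.16 to 6.83 in CON mice. Macrophage markers, 7 of 7 higher in MIX than in E2, averaged 8.03 to 9.03 in MIX, 7.49 to 7.91 in HD, 7.71 to 8.03 in E2 and 6.79 to 7.13 in CON mice.

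**Figure D5:**
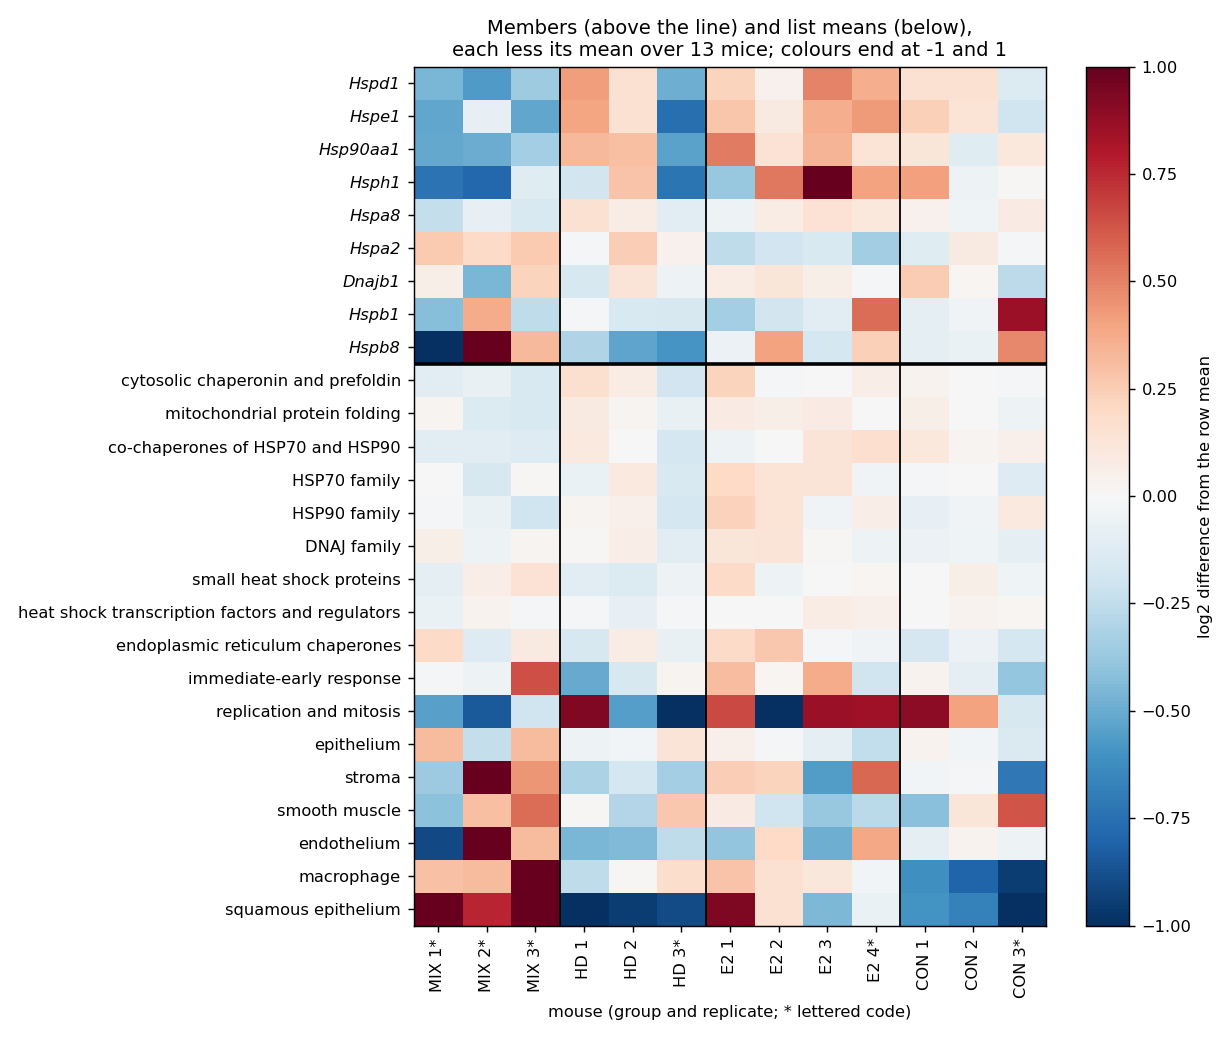
Log2 values of 9 members (above the line) and means of gene lists (below), each less its mean over 13 mice, by mouse and group; red is higher and blue lower, with colours ending at -1 and 1. Hspd1, Hspe1, Hsp90aa1 and Hsph1 are blue in the 3 MIX mice (Hspe1 faintly in MIX 2) and in HD 3. Hspd1 and Hspe1 are also blue in CON 3, Hsp90aa1 in CON 2, and Hsph1 in E2 1, HD 1 and, faintly, CON 2. Replication and mitosis is blue in the 3 MIX mice, HD 3, HD 2, E2 2 and, faintly, CON 3.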

How the data were processed

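Total RNA (250 ng per mouse) was turned into biotinylated cDNA with the GeneChip WT PLUS reagents, as the labels' protocols state. The authors deposited log2 expression values per feature, made with RMA per the submitters' processing notes; the sources used here give neither its version nor the array build. It draws on all arrays together and compresses dim features. No array copies another, and the number of arrays limits the precision.

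Of 65929 features, 30604 carried 1 symbol, 2146 several and 33179 none here, with 827 symbols updated through Entrez identifiers. The members and lists were chosen with earlier results of these data known. The named genes are the members, from each list the 2 brightest genes, any that passed and a set of well-known chaperones, and the 5 genes most like the members' mean, without predicted genes. Heat shock factor gene Hsf1 had no feature of its own.

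All 65929 features were fitted with limma 3.58.1 (lmFit, eBayes) in R 4.3.3 on 13 mice, with 4 groups and code style as a covariate (8 residual degrees of freedom), two-sided, with Benjamini-Hochberg adjustment over all features and a threshold of 0.05. The style term is estimated from HD, E2 and CON. Intervals are 95% intervals of the fit. The script was tested on simulated data. Alternatives were no style term, a replicate block, array centring, brighter features only, a trended robust prior, single code styles, other features of a gene and leaving out each mouse; the restriction to lettered mice, the other features and the plain leave-one-out were chosen after seeing the data.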

Additional observations from a re-analysis of the deposited data

How the results depend on the processing

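No member passed in any alternative of the tested comparisons, and HD minus CON and E2 minus CON gave 0 passing features in every one of them. In the main fit 1918 and 2651 features had an unadjusted p under 0.05. The alternatives gave 913 (brighter features only) to 3823 for HD minus CON and 1581 to 4178 for E2 minus CON. Without the style term, limma passed 1 feature for MIX minus E2 (0 with it), 12 for MIX minus HD (3 with it) and 15 for MIX minus CON (2 with it). For MIX minus HD and MIX minus CON it passed 6 and 11 among features above the median mean and 0 and 0 among lettered mice alone. Centring each array gave 5 for MIX minus CON. Leaving out 1 mouse at a time gave 0 to 24 features for MIX minus E2 (24 without MIX replicate 2), 0 to 80 for MIX minus HD (80 without MIX replicate 1, 53 without MIX replicate 2), 0 to 89 for MIX minus CON (89 without MIX replicate 2, 40 without MIX replicate 1) and 0 to 2 for the interaction (MIX minus E2 less HD minus CON), and 0 for the other contrasts.

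After group means were removed, 5 of 18 same-numbered pairs of mice correlated over 0.1 (-0.26 to 0.31). Differently numbered pairs were not computed, so this cannot show whether the replicate numbers pair the mice. The fit with the replicate block gave 0 features for both MIX minus HD and MIX minus CON. Under that block Hspd1, Hspe1 and Hsph1 turned positive in every contrast with MIX given above: 0.08, 0.07 and 0.39 for MIX minus E2, 0.04, 0.15 and 0.62 for MIX minus HD, 0.01, 0.03 and 0.29 for MIX minus CON, and 0.11, 0.20 and 0.72 for the interaction. For E2 minus CON they turned to -0.07, -0.04 and -0.10. Only E2 has a replicate 4, so the block fits that mouse exactly and it no longer informs any contrast. The cause of the changes was not tested. Numbered mice alone give no value for MIX. The 3 to 4 mice per group and the style term, which rests on 1 lettered mouse each in HD, E2 and CON, limit what can be read from MIX.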
